A study of Mus musculus with 28 samples.

Results

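Saa3, Lcn2 and Wfdc21 are genes of small secreted proteins that belong to the acute-phase and antimicrobial response. They were followed in retinal microglia after an injection of lipopolysaccharide (LPS) into the eye. They were taken by symbol, 3 of the 40021 genes listed, because of their levels at 18 h in an earlier look at the same retinas, so their differences from naive retinas are given below as a description, with no test. The data are mRNA-Seq values of cells sorted from 28 single mouse retinas, of which 10 were naive and 6, 5 and 7 were taken 4 h, 18 h and 2 weeks after the injection. All mice were male heterozygotes of the Cx3cr1CreER:R26-tdTomato line on a C57BL/6 background, and naive mice carried the same alleles as injected ones. In these mice the promoter of the fractalkine receptor gene Cx3cr1 drives a tamoxifen-dependent Cre, which switches on the red fluorescent protein tdTomato. Tamoxifen was applied to the eye at 4 to 5 weeks of age, and endotoxin-induced uveitis (EIU) was induced 4 weeks later with 10 ng LPS in the vitreous, while naive eyes received no LPS.

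From each retina 600 live cells (tdTomatohi DRAQ7-) were sorted and their RNA amplified. Cx3cr1 is also active in other myeloid cells, so the label rests on the delay between tamoxifen and injection as well as on the promoter. One retina was one sample, left and right eyes were both used, and no label ties a retina to a mouse. The study ran as 2 experiments. In the order naive, 4 h, 18 h, 2 weeks, the first held 6, 3, 4 and 4 retinas and the second 4, 3, 1 and 3. Retinas had between 7510000 and 19700000 alignments. Levels are RPKM, read numbers corrected for transcript length and for the alignments of the retina, and differences are between group means of log2(RPKM + 1), which understates changes of low genes. In such bulk samples, fewer cells that express a gene and less of its RNA per cell cannot be told apart. Naive retinas 3 and 4, 2-week retina 1 and 18 h retina 4 had the fewest genes at an RPKM of 1 or more in their groups. They had 7088, 6552, 6644 and 6969. Differences of the 3 genes at 18 h, and of Saa3 at 2 weeks, are also given without them. Other values, such as marker ranges, include them.

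Acute-phase proteins are made in large amounts when interleukin-1, interleukin-6 or tumour necrosis factor signal that tissue is infected or injured, mostly in the liver but also in macrophages. Serum amyloid A proteins bind lipids and act on formyl peptide, toll-like and scavenger receptors of leukocytes. Lipocalin-2 withholds iron from bacteria by binding the siderophores with which they collect it. Wfdc21 encodes a small protein with a whey acidic protein (WAP) domain, a fold found in several protease inhibitors and antimicrobial peptides.

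Saa3 lies on chromosome 7 (46711998 to 46715700, minus strand, GRCm38), with its main transcript of 4 exons and 555 bases, in a cluster with Saa4 (from 46727998), Saa1 (from 46740497) and Saa2 (from 46751790). Lcn2 lies on chromosome 2 (32384633 to 32388252, minus strand), with a main transcript of 6 exons and 915 bases. Wfdc21 lies on chromosome 11 (83746940 to 83752642, plus strand), with 3 exons and 434 bases, beside its relatives Wfdc17 (from 83703991) and Wfdc18 (from 83709015). All 3 are annotated as protein coding, and none of the neighbours named here overlaps them. None of the 481, 841 and 360 stretches of 75 bases, the read length before trimming, in these 3 transcripts occurs in a transcript of another gene. At 50 bases, for trimmed reads, 9 of 506 stretches of Saa3 also occur in Saa1, and 0 of 866 and 385 stretches of Lcn2 and Wfdc21 are shared. One read of Saa3 was worth about 0.0915 to 0.240 RPKM, one of Lcn2 0.0555 to 0.146 RPKM and one of Wfdc21 0.117 to 0.307 RPKM, depending on the depth of the retina. Levels below these come from the authors' estimation, which divides reads between transcripts.

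Promoter sequences are shown because C/EBP factors, of which C/EBP-beta is induced by inflammatory cytokines, are textbook regulators of acute-phase genes. RefSeq promoter windows (GRCm38.p6, 250 bases before to 50 after the gene start) were held for 2 of the 3 genes, Saa3 and Lcn2. They were searched on both strands for a C/EBP motif (TTGCNNAA), a STAT motif (TTCNNNGAA), an AP-1 motif (TGANTCA) and an NF-kappa B motif. The Saa3 stretch is chr7:46715701-46715926, read 5′ to 3′ on the minus strand and ending 1 base before the transcript. The Lcn2 stretch is chr2:32387937-32387966, also on the minus strand, the 30 bases around its match, which lie in an exon of a longer Lcn2 transcript. Capitals mark the matches to the C/EBP motif.
Saa3: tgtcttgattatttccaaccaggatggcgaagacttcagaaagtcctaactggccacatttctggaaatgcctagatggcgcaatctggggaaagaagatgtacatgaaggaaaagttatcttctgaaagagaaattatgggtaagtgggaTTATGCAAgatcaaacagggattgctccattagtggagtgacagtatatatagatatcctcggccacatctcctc
Lcn2: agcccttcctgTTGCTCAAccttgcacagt
Each window held 1 C/EBP match, on the reverse strand 99 bases before the RefSeq start in Saa3 and on the forward strand 216 bases before it in Lcn2. The C/EBP motif occurred in 10.8% of all 32851 promoter windows. The STAT motif (8.3% of all windows), the AP-1 motif (7.81%) and the NF-kappa B motif (4.51%) had no match in either window. A match describes letters only and is no evidence of binding.

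Saa3, an acute-phase serum amyloid A gene of macrophages and epithelia, had the widest range of the 3 genes. In naive retinas its level ran from 0.0364 to 0.649 RPKM with a median of 0.342 (mean 0.347 ± 0.190, SD, n = 10), which corresponds to at most about 4.07 reads. At 4 h it was 15.2, 155 and 108 RPKM in the 3 retinas of experiment 1, but 0.209, 2.58 and 1.85 RPKM in those of experiment 2. At 18 h it was 4173, 12044, 8705, 1198 and 3010 RPKM (mean 5826 ± 4445, n = 5). All 5 retinas at 18 h lay far above every other retina of the study, and by its mean Saa3 ranked 9 among the 40021 genes of these cells. At 2 weeks the level ran from 18.2 to 155 RPKM with a median of 73.2 (mean 81.3 ± 53.4, n = 7). All 7 retinas at 2 weeks were above all 10 naive retinas, and their mean was 1.40% of the mean at 18 h. Saa3 was still the gene ranked 681 by mean level at 2 weeks, compared with 14582 in naive retinas.

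The difference of Saa3 from naive retinas was 3.20 at 4 h, 11.67 at 18 h and 5.60 at 2 weeks on the log2 scale. By these differences the order of its levels was naive, 4 h, 2 weeks, 18 h over both experiments. The place of 4 h and 2 weeks in that order depended on the experiment, with 5.55 and 5.35 in experiment 1 alone and 0.88 and 5.93 in experiment 2 alone. Of the 6 retinas at 4 h, 4 lay below the lowest 2-week retina, and the other 2 stood at 108 and 155 RPKM. One 4 h retina, with 0.209 RPKM, lay inside the naive range.

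Lcn2, the gene of lipocalin-2, was at 0 in 4 of 10 naive retinas and reached 0.959 RPKM in the highest (median 0.103, mean 0.253 ± 0.365). At 4 h it was 17.3, 14.1 and 13.7 RPKM in experiment 1 and 2.03, 9.42 and 1.11 RPKM in experiment 2. All 6 retinas at 4 h were above all naive retinas (mean 9.61 ± 6.73, n = 6). At 18 h Lcn2 was 121, 126, 182, 2.89 and 51.8 RPKM (mean 96.7 ± 69.9, n = 5). The fourth retina at 18 h fell inside the 4 h range, while the other 4 were above all retinas of the other groups. At 2 weeks Lcn2 was back in the naive range, from 0 to 0.995 RPKM with a median of 0.116 (mean 0.335 ± 0.424, n = 7), and only 1 of 7 retinas passed the highest naive one.

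On the log2 scale Lcn2 differed from naive retinas by 2.73 at 4 h, 5.54 at 18 h and 0.08 at 2 weeks. The difference at 18 h was 6.51 without the fourth retina at 18 h. By its mean, Lcn2 ranked 3513 at 4 h, 692 at 18 h and 14666 at 2 weeks, against 15540 in naive retinas. Its 2-week mean was 0.346% of its 18 h mean, a lower share than that of Saa3.

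Wfdc21 was listed at 0 in all 10 naive and all 7 two-week retinas, so no fold change against them is given, and its differences of 0.29 at 4 h and 5.80 at 18 h on the log2(RPKM + 1) scale are set by the pseudocount. At 4 h it was listed at 0 in the 3 retinas of experiment 1 and in 1 retina of experiment 2, whose other retinas had 1.81 and 0.199 RPKM. At 18 h it was 37.3, 120, 69.8, 102 and 15.1 RPKM (mean 68.8 ± 43.6, n = 5) and ranked 970 by mean level. Thus all 5 retinas at 18 h carried Wfdc21 and stood apart from every other retina, the highest of which was the 4 h retina at 1.81 RPKM. Of the 3 genes it was the one with the least signal at 4 h, where its mean was 0.487% of that at 18 h, beside 0.809% for Saa3 and 9.95% for Lcn2.

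**Figure D1:**
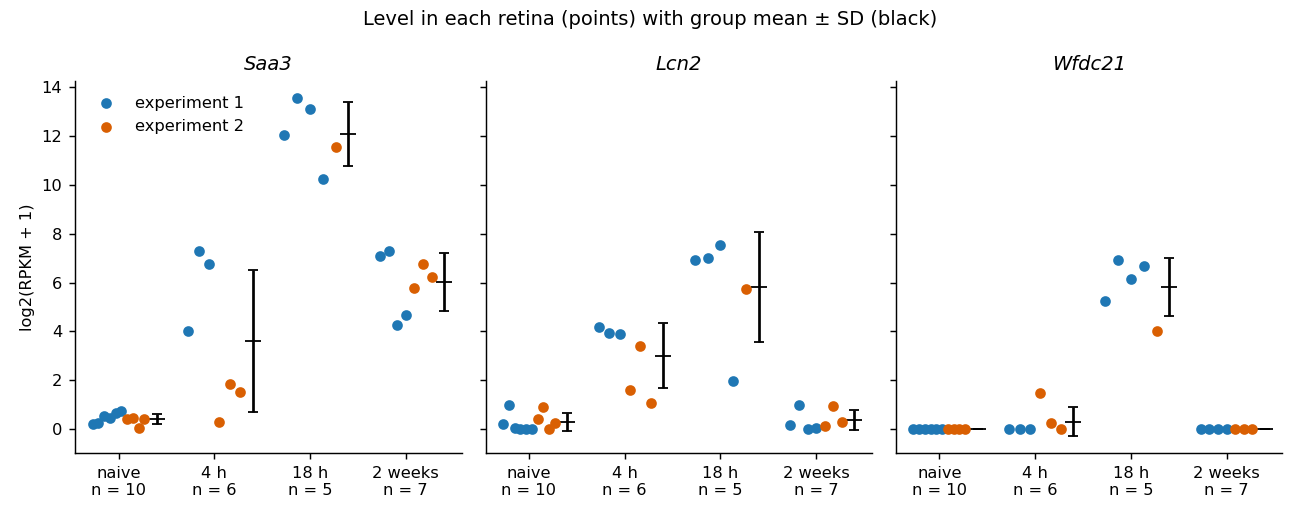
Level of Saa3, Lcn2 and Wfdc21 in each of the 28 retinas, as log2(RPKM + 1), by group on the x axis, with points coloured by experiment and the group mean ± SD in black. Saa3 stays above all naive retinas in 7 of 7 retinas at 2 weeks, whereas Lcn2 does so in 1 of 7 and Wfdc21 in 0 of 7.

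With the thresholds of the study applied to all 13164 genes past a filter on low values (limma adjusted p not above 0.05 and a change of 2-fold or more), 2 of the 3 genes (Saa3 and Lcn2) were past them upwards at 4 h, where 3.68% of all genes tested were up and 8.08% changed in either direction. With a pseudocount of 10 in place of 1, 0 of the 3 were past them at 4 h. At 18 h all 3 were, beside 2.84% of all genes, and at 2 weeks Saa3 was, the 1 gene of 13164 (0.0076%). All retinas of a group lay above all naive retinas for 1.65% of genes at 4 h, 2.05% at 18 h and 0.0076% at 2 weeks. The genes were chosen on these contrasts, and Wfdc21 passed the filter through its 18 h retinas. These counts therefore only describe the choice and are no test of the 3 genes.

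The 3 genes did not keep a fixed proportion among the retinas at 18 h. RPKM is corrected for transcript length, so levels can be set side by side between genes. Saa3 was 34.6, 95.8, 47.8, 415 and 58.1 times the level of Lcn2 in retinas 1 to 5, and 112, 101, 125, 11.7 and 199 times that of Wfdc21. Retina 4 stood out in both series, with the lowest Saa3 and the lowest Lcn2 but the second highest Wfdc21. Retina 5, the single one of experiment 2, had the lowest Wfdc21.

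The sorted cells had microglial transcripts in every group. P2ry12, the purinergic receptor that marks resting microglia, ran from 866 to 2714 RPKM in naive and from 88.3 to 360 RPKM in 18 h retinas, and Tmem119 from 70.5 to 1167 and from 29.9 to 183 RPKM. The summed level of 10 microglial markers was 3240 to 6868 RPKM in naive retinas, 416 to 3930 at 4 h, 376 to 3589 at 18 h and 2767 to 7637 at 2 weeks, and the lowest value at 18 h was that of retina 4.

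Lipocalin-2 is also a granule protein of neutrophils, so neutrophil markers are given beside it. Of 14 neutrophil markers, 13 were listed, and their sum was 5.60 to 83.02 RPKM in naive retinas, 12.1 to 54.4 at 4 h, 16.0 to 55.9 at 18 h and 7.32 to 67.6 at 2 weeks, mostly from Csf3r and Mcemp1. Mcemp1 had a mean of 0.166 RPKM in naive retinas, 11.98 at 4 h, 18.6 at 18 h (9.06 to 28.9 in the 5 retinas) and 0.615 at 2 weeks. Csf3r had means of 21.2, 14.1, 7.87 and 25.1 RPKM in the same order. Mcemp1 was thus high at 4 h and 18 h, and its part in the result was not tested. Without these, the other 11 summed to at most 0.807 RPKM in naive, 0.934 at 4 h and 1.89 at 2 weeks. At 18 h they summed to 1.86, 12.7, 17.4, 0 and 0.885 RPKM in retinas 1 to 5. Retina 4, in which all 11 were at 0, had 1198 RPKM of Saa3, 102 RPKM of Wfdc21 and 2.89 RPKM of Lcn2. It also had the fewest genes at an RPKM of 1 or more at 18 h, 6969 beside 9499 to 10220 in the others, and its Mcemp1 was 13.1 RPKM. Whether its zeros were transcripts missed in this library was not tested. Retina 3, with the highest sum, had the highest Lcn2. Retinas 1 and 2, with sums of 1.86 and 12.7, had 121 and 126 RPKM of Lcn2. The part of neutrophils in the level of Lcn2 was not tested. S100a8, a calprotectin subunit gene and a main neutrophil transcript, was 0, 3.07, 9.24, 0 and 0.638 RPKM at 18 h, S100a9 was 0.994, 2.55, 5.15, 0 and 0, and the neutrophil surface gene Ly6g was at most 0.189.

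Of 8 monocyte markers, all listed, the summed level was 0.216 to 18.8 RPKM in naive retinas, 0.0123 to 13.03 at 4 h, 13.4 to 92.1 at 18 h and 5.06 to 31.1 at 2 weeks. The monocyte genes Ly6c2 and Ccr2 reached at most 4.68 and 1.15 RPKM at 18 h. Most of the sum at 18 h came from Ly6a (6.57 ± 6.36 RPKM in naive and 29.0 ± 18.98 at 18 h) and Plac8 (0.829 ± 1.07 and 8.79 ± 10.8). Markers of Mueller glia and astrocytes, 7 of 7 listed, summed to 273 to 4961 RPKM in naive, 904 to 2388 at 4 h, 142 to 1757 at 18 h and 942 to 10129 at 2 weeks, with Glul, glutamine synthetase, at 25.4 to 71.9 RPKM and Gfap at most 3.65 RPKM at 18 h. Rod markers summed to 717 to 4367 RPKM in naive and 584 to 1923 RPKM at 18 h, endothelial ones to at most 4.11 RPKM in any retina and epithelial ones to at most 42.8 RPKM. The part of these cells in the levels of Saa3, Lcn2 and Wfdc21 was not tested.

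**Figure D2:**
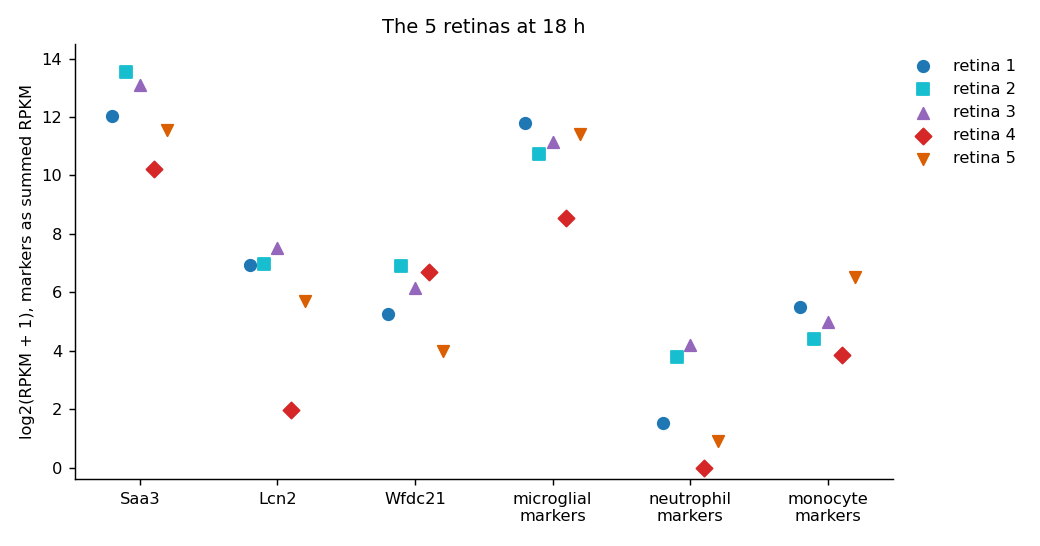
The 5 retinas at 18 h, each with its own symbol, as log2(RPKM + 1) for the 3 genes and for the summed RPKM of 10 microglial, 11 neutrophil (without Csf3r and Mcemp1) and 8 monocyte markers. Retina 4 had 0 RPKM of these 11 neutrophil markers, a subset chosen after seeing the data. Its sum over all 13 listed was 16.0 RPKM, with Mcemp1 at 13.1 RPKM. Retina 4 had the lowest Lcn2, at 2.89 RPKM, while its Wfdc21 was 102 RPKM. It also had the fewest genes at an RPKM of 1 or more (6969 beside 9499 to 10220).

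The experiment and the eye were not used to choose the genes, so both were tested. Over all groups, the difference of experiment 2 from experiment 1 was -1.15 for Saa3 (standard error 0.53, adjusted p = 0.13 from limma) and -0.37 for Lcn2 (adjusted p = 0.559). Neither passed, where 13.4% of all genes tested did. The difference of right from left eyes was -0.26 for Saa3 (limma adjusted p = 0.913) and -0.34 for Lcn2 (0.85), and 0% of all genes passed that comparison. These tests are not given for Wfdc21, which passed the filter through its 18 h retinas and was constant at 0 in naive and 2-week retinas.

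At 4 h, however, the retinas of the experiments did not overlap in Saa3 or Lcn2. How many of all genes split in this way was not counted. Wfdc17, a relative of Wfdc21, also did, with 152, 1605 and 1111 RPKM in experiment 1 and 52.3, 46.2 and 40.4 RPKM in experiment 2. Saa3 had a mean of 92.8 ± 71.2 RPKM in experiment 1 and 1.55 ± 1.22 in experiment 2 (n = 3 each), and Lcn2 had 15.04 ± 2.01 and 4.19 ± 4.55. With 3 against 3 retinas an exact permutation test cannot go below p = 0.1, and both genes reached that value (two-sided, 0.35 after adjustment over the 7 tests made within groups). These 7 include Wfdc21 at 4 h, for which no test is given. The response at 4 h, taken against naive retinas of the same experiment, was lower in experiment 2 by 4.66 on the log2 scale for Saa3 (interaction -4.66, standard error 1.04, limma adjusted p = 0.0769), a comparison added after these values were seen. It did not pass, beside 0.0988% of all genes that did, and passed without the first 4 h retina (adjusted p = 0.00814, range with each retina left out 0.00814 to 0.369). The interaction of Lcn2 at 4 h (-2.15) had an adjusted p of 1 from limma. Within experiment 2 alone, 2 of 3 retinas at 4 h had Saa3 above all naive retinas, and all 3 had Lcn2 above them.

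At 2 weeks both experiments had raised Saa3, with 83.4 ± 72.1 RPKM in experiment 1 (n = 4) and 78.5 ± 27.1 RPKM in experiment 2 (n = 3; exact permutation p = 0.629, two-sided, on the log2 scale). Lcn2 stood at 0.286 ± 0.476 and 0.400 ± 0.435 RPKM there (exact permutation p = 0.543). At 18 h experiment 2 had 1 retina, which the fit assumes to vary like the others. The response there differed between the experiments by -0.52 for Saa3 and -0.30 for Lcn2 (limma adjusted p = 1 for both), and 0% of all genes passed.

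Whether the genes moved together within a group was asked of naive, 4 h and 2-week retinas, 9 relations in all, of which 5 could be computed because Wfdc21 was constant in naive and 2-week retinas. At 2 weeks Saa3 and Lcn2 had Pearson's r = 0.71 (exact permutation p = 0.0665, adjusted 0.253) and Spearman's rho = 0.89 (exact permutation p = 0.0123, adjusted 0.0615) over 7 retinas, and r was 0.59 without the 2 retinas farthest from the median of Saa3. At 4 h r was 0.76 over 6 retinas (exact permutation p = 0.101, adjusted 0.253) with rho = 0.77 (p = 0.103 by the same exact test, adjusted 0.257). The experiments did not overlap in either gene at 4 h, so this relation cannot be told apart from the difference between experiments. In naive retinas, where Saa3 amounted to at most about 4.07 and Lcn2 to at most about 10.7 reads, r was -0.28 (permutation p = 0.442) and rho was -0.39 (permutation p = 0.267). With Wfdc21 at 4 h, r was -0.63 for Saa3 and -0.51 for Lcn2, given as a description. Wfdc21 was at 0 in 4 of these 6 retinas and passed the filter through its 18 h retinas, so no test is given for it. The adjustment over the 5 relations included these. None of the relations of Saa3 with Lcn2 passed after adjustment. Within experiment 1, the 6 naive retinas gave r = -0.69 (exact permutation p = 0.1) and rho = -0.76 (exact permutation p = 0.117), and the other groups had too few retinas of 1 experiment to repeat the relation.

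Genes whose pattern over the 28 retinas was most like that of each gene are named by Pearson's r of log2(RPKM + 1), as a description. The 28 retinas share the group differences on which the genes were chosen. For Saa3 they were Cxcl13, a B cell chemokine (r = 0.88), Fcgr4, an activating Fc receptor (0.85), Ly6i (0.84), Ms4a6d (0.82) and Gm7676 (0.82). Cxcl13 had a mean of 0.809 RPKM before LPS, 5.11 after 4 h, 1189 after 18 h and 19.8 after 2 weeks, the last with a range of 1.07 to 88.5 that overlapped the naive range of 0 to 3.75. For Lcn2 they were Gpr31b (0.92), Prdx5, a peroxiredoxin (0.91), Ifitm1, an interferon-induced membrane protein gene (0.89), Il18bp, which encodes the decoy of interleukin-18 (0.89), and Cd72 (0.88). Prdx5 had a much narrower range, with means of 108 RPKM in naive retinas, 212 RPKM at 4 h and 368 RPKM at 18 h. For Wfdc21 they were Nkg7, a granule membrane gene of cytotoxic lymphocytes (0.96), Gimap4 (0.95), Marco, a scavenger receptor of macrophages (0.94), Pilrb2 (0.93) and Pilrb1 (0.93). Marco was at most 0.0583 RPKM in naive retinas and 16.4 to 37.6 RPKM at 18 h. Among themselves the 3 genes had r = 0.76 (Saa3 with Lcn2), 0.77 (Saa3 with Wfdc21) and 0.75 (Lcn2 with Wfdc21), lower than with any of these.

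**Figure D3:**
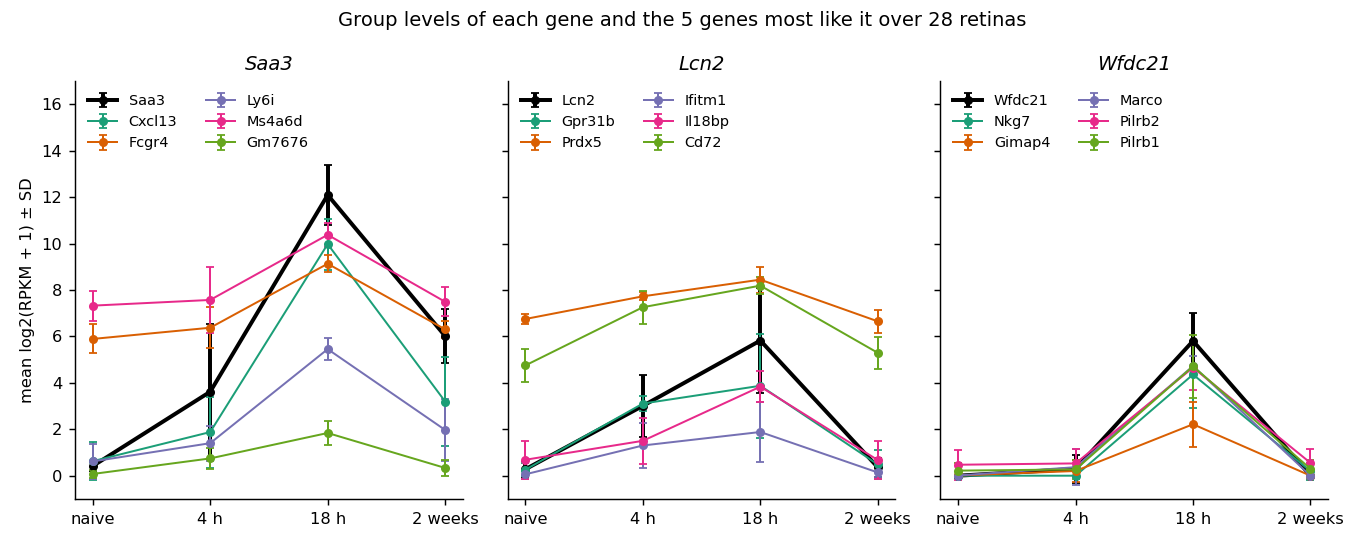
Mean log2(RPKM + 1) ± SD by group for Saa3, Lcn2 and Wfdc21 (thick black lines) and the 5 genes most like each over 28 retinas (thin coloured lines). The genes most like Wfdc21 are near 0 outside 18 h, and those most like Lcn2 are also higher at 4 h.

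Close relatives of the 3 genes were mostly silent. This list and those that follow were chosen with earlier results of these data known. Their counts beside the shares of all genes are therefore a description. Of 32 listed serum amyloid A, lipocalin and WAP domain genes, 22 were in the table and 4 passed the filter. Saa1 and Saa2, the main circulating forms, did not pass it. Saa1 was 0.349, 2.17, 1.69, 0.0725 and 0.537 RPKM at 18 h, and Saa2 was 0.103, 0.687, 0.557, 4.93 and 0.527. Saa3 was at least 5153 times Saa1 and at least 243 times Saa2 in the same retinas, and Saa4 was listed at 0 in all retinas at 18 h. Slpi, a WAP domain protease inhibitor of myeloid and epithelial cells, was 0.660, 0, 37.2, 0 and 0.375 RPKM at 18 h, so 1 retina carried nearly all of it.

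Orm1, which encodes an acute-phase glycoprotein of the lipocalin family, was the 1 of the 4 called at 18 h (difference 2.5). Among all genes, 4.69% were called there in either direction. Orm1 reached an RPKM of 1 in 5 retinas at 18 h, 1 at 4 h, 2 at 2 weeks and 0 naive ones. It passed the filter through its 18 h retinas, so its call is a description and no p is given. Its level at 18 h was 1.90, 1.60, 4.12, 22.8 and 5.66 RPKM, and it was listed at 0 in 9 of 10 naive retinas. Wfdc17, which neighbours Wfdc21 on chromosome 11, was at 20.9 to 393 RPKM in naive retinas and 236, 1159, 606, 1029 and 200 RPKM at 18 h. Its difference of 2.22 did not pass (limma adjusted p = 0.127). Ptgds, prostaglandin D synthase (-0.93, limma adjusted p = 0.558), and Wfdc10 (0.12, 0.93) did not pass either. At 4 h limma called 0 of the 4, and 1 had an unadjusted p under 0.05. The median difference of the 4 was 0.69 at 4 h, 1.17 at 18 h and 0.34 at 2 weeks, beside -0.11, -0.08 and 0.07 over all genes tested.

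Of the other acute-phase genes, some were called at 4 h and others at 18 h. Of 32 listed, 31 were in the table and 11 passed the filter, and most liver acute-phase genes, such as Crp, Apcs, Hpx, Fga and Lbp, did not. At 4 h 3 of 11 rose and 0 fell, beside 3.68% up and 4.39% down among all genes. These were Il1rn, the interleukin-1 receptor antagonist (6.22, limma adjusted p = 5.69e-09), and the metallothioneins Mt2 (5.00, adjusted p = 3.13e-05) and Mt1 (2.13, adjusted p = 0.00382). At 18 h 5 rose and 1 fell, beside 2.84% up and 1.85% down. These 6 calls were 4 with equal summed RPKM, without a filter and with the replicate block, and 4 to 6 with each retina left out, with 4 without naive retina 2, 3, 5 or 6 or 18 h retina 2, 3 or 5. Il1rn was 4.71 above naive, Cp, the copper-carrying ferroxidase ceruloplasmin, 3.03 (limma adjusted p = 4.23e-04), complement factor B (Cfb) 1.61, the C1 inhibitor gene Serping1 1.40 and Serpina3n 1.18. Cfb and Serpina3n passed the filter only with their 18 h retinas counted, so their calls are a description. Trf, the gene of the iron carrier transferrin, fell by 1.99 (limma adjusted p = 4.03e-04), from 175 ± 78.3 RPKM in naive retinas to 43.9 ± 16.6 RPKM. Median differences of the 11 were 1.03, 1.18 and 0.01 at the 3 times, beside -0.11, -0.08 and 0.07 over all genes.

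Receptors for serum amyloid A and genes of iron handling made up a list of 24, of which 21 passed the filter. At 4 h 5 rose and 3 fell, beside 3.68% up and 4.39% down among all genes, with median 0.03 over the 21 beside -0.11 over all genes. Tlr2, a toll-like receptor that also binds serum amyloid A, rose by 4.56 (limma adjusted p = 3.98e-10) and Cd14, the LPS co-receptor, by 3.82, whereas Tlr4 fell by 2.15 and its partner Ly96 by 1.33. At 18 h 7 rose and 1 fell, beside 2.84% up and 1.85% down (median 0.24 beside -0.08), and Tlr2 was among them (1.97, limma adjusted p = 0.00317). Fpr1, a formyl peptide receptor, rose by 5.92 (limma adjusted p = 1.06e-04) and stood at 186, 192, 279, 90.5 and 259 RPKM, all above the naive range of 0 to 21.9. Fpr2, the formyl peptide receptor that binds serum amyloid A, rose at 4 h (2.07, limma adjusted p = 0.00303) and at 18 h (3.19, adjusted p = 8.76e-05). The scavenger receptor Cd36 rose by 2.51 at 18 h (limma adjusted p = 0.0375, close to the threshold).

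Among iron genes, Fth1, ferritin heavy chain, rose by 2.06 at 4 h and 3.22 at 18 h (limma adjusted p = 0.00128 and 1.73e-05). Slc40a1, the iron exporter ferroportin, fell by 1.81 and 2.40 (adjusted p = 0.00476 and 9.67e-04 from limma). The haem oxygenase gene Hmox1 rose by 2.80 at 18 h, and the metal importer Slc39a14 by 1.5 at 4 h and 1.49 at 18 h. Slc22a17, a receptor described for lipocalin-2, did not pass at any time (-0.12, -0.65 and 0.35), with 4.70 ± 8.14 RPKM in naive and 1.41 ± 0.939 RPKM at 18 h. The other described receptor, Lrp2, failed the filter and was at most 0.202 RPKM at 4 h and at most 0.0159 RPKM at 18 h.

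Of cytokines and factors known to induce acute-phase genes, more were called at 4 h than at 18 h. Of 32 listed, 27 passed the filter, and 13 rose and 2 fell at 4 h, beside 3.68% up and 4.39% down among all genes (median 1.84 beside -0.11). Like the other lists, this one was chosen with earlier results known, so the counts describe it. Tnf rose by 9.26 (limma adjusted p = 4.57e-13), Il1b by 8.91 (1.17e-11), Il1a by 6.52 and Il6 by 2.48, and the inhibitors Socs3 and Nfkbia by 5.66 and 4.82. Nfkbiz, an atypical I-kappa-B protein needed for induction of Lcn2 in macrophages, rose by 4.73 (limma adjusted p = 3.01e-08) and Cebpb by 2.94 (0.00463). The interleukin-6 receptor genes Il6ra and Il6st fell by 1.29 and 1.16. At 18 h, when Saa3, Lcn2 and Wfdc21 were highest, 2 of the 27 rose and 1 fell, beside 2.84% and 1.85% of all genes (median 0.25 beside -0.08), namely Tnf by 3.62, Il1b by 2.56 and Il6ra (-1.56), while Nfkbiz (0.52), Cebpb (1.64) and Il6 (0.05) did not pass.

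Il1b at 4 h was 905, 457 and 320 RPKM in experiment 1 and 874, 3968 and 1013 RPKM in experiment 2, where 2 of 3 retinas lay above all 3 of experiment 1. Cebpb was 1587, 63.6 and 68.3 RPKM in experiment 1 and 201, 642 and 322 RPKM in experiment 2. Il1rn, of the acute-phase list, had 338, 274 and 156 RPKM in experiment 1 and 6.47, 218 and 15.8 RPKM in experiment 2. The difference between experiments was not tested for Il1b, Cebpb or Il1rn. At 2 weeks limma called 0 genes in each of the 4 lists, and 0, 0, 0 and 1 genes of the relatives, acute-phase, receptor and iron, and inducer lists had an unadjusted p under 0.05. The 2-week medians were 0.34, 0.01, 0.22 and 0.30, beside 0.07 over all genes. Saa3 stood 5.60 above naive retinas at the same time.

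**Figure D4:**
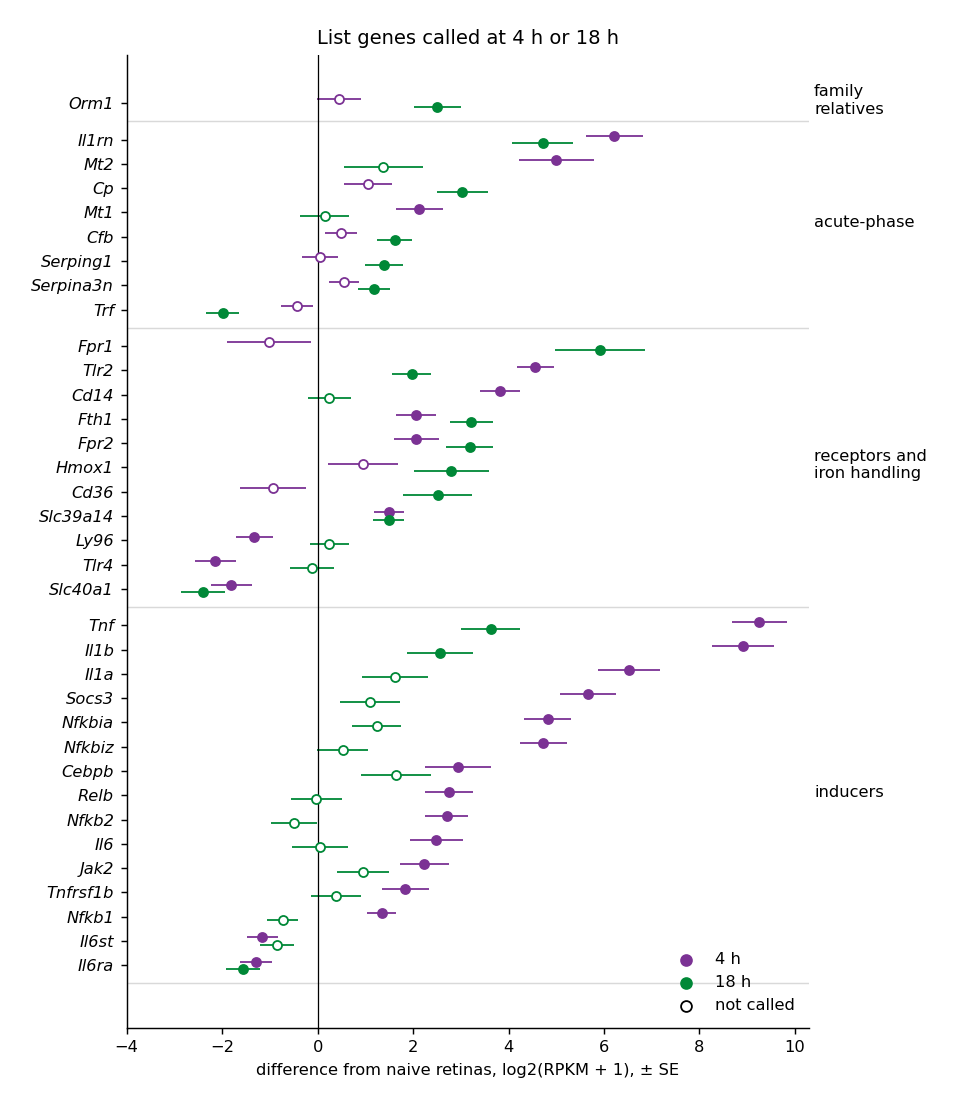
Difference from naive retinas (log2(RPKM + 1), ± SE from limma) at 4 h (purple) and 18 h (green) for every list gene called at either time, with open symbols where the call was not made. Inducers such as Tnf (9.26) and Il1b (8.91) are farthest from 0 at 4 h, and Fpr1 (5.92) and Il1rn (4.71) at 18 h.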

How the data were processed

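Retinal microglia of 28 retinas were analysed from the RPKM values the authors deposited, 1 per gene and retina. Per the labels and methods, the authors aligned 75-base reads of amplified cDNA to mm10 with STAR 2.5.3a and estimated levels with Partek's expectation-maximisation, so whole reads could not be recovered. The authors' tables for 4 h and 18 h hold p-values, ratios and fold changes and were not used. The library kit marks no strand. Genes that reached an RPKM of 1 in 5 or more retinas (13164 of 40021) were fitted as log2(RPKM + 1) in limma 3.58.1 (R 4.3.3), with 4 groups, a variance trend and Benjamini-Hochberg adjustment. In a trial with residuals shuffled between retinas and 200 genes raised, this fit made 44.5 false calls at 18 h and 2.8 at 4 h (means of 10 draws). Calls at 18 h close to the threshold are therefore less certain. Permutation tests used scipy 1.17.1, exact up to 7 retinas and with 100000 resamples for naive retinas. The depth, 7510000 to 19700000 alignments, limits values of single reads. No label ties retinas to mice, so p-values measure only the spread between these retinas. Any pair of retinas had at most 2 nonzero values in common, so none was deposited in duplicate.

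The 3 genes and all lists were chosen with earlier results of these data known. Named were these genes, every relative past the filter, up to 8 called genes per list with the largest difference at 4 h or 18 h, the 5 genes most like each member by r, and the marker genes. Genes named outside this rule (Saa1, Saa2, Saa4, Slpi, Slc22a17, Lrp2, liver genes that failed the filter, and list genes beyond the 8) were chosen after their values were seen. Positions and promoters come from GENCODE M21 and RefSeq, which use the build of mm10. One microglial marker is not reported here and was left out of the marker sum. Replicate numbers were not used to pair the retinas in the main fit. The neutrophil sum without Csf3r and Mcemp1 was chosen after seeing the data. Alternatives were other pseudocounts, filters and scalings, 1 experiment alone, covariates and retinas left out.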

Additional observations from a re-analysis of the deposited data

Results flagged for a closer look

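Wfdc21 in the fourth retina at 4 h stood at 1.81 RPKM, far from the other 5 retinas of its group, which had between 0 and 0.199 RPKM. Its gap to the nearest retina was 0.890 of the group's range, where the limit of Dixon's test at the 95% level is 0.625. This was 1 of 10 groups tested. The limit assumes normally spread values, whereas 4 of these 6 retinas were at 0, so it gives no chance rate here. The fourth retina also had the most alignments of the study (19700000). The difference of Wfdc21 from naive retinas at 4 h was 0.05 on the log2 scale without this retina, compared with 0.29 with it.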

How the results depend on the processing

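Every difference of Saa3 and Lcn2 from naive retinas kept its direction under the 10 alternatives. With each retina left out, that of Lcn2 at 2 weeks was -0.02 to 0.16. Saa3 at 4 h differed by 5.55 when the fit held retinas of experiment 1 and by 0.88 when it held those of experiment 2, beside 4.42 and 1.54 with pseudocounts of 0.1 and 10. Differences of Wfdc21 are set by the pseudocount, since its naive retinas are at 0. With a pseudocount of 0.1 in place of 1, the differences were 13.40 (Saa3), 7.84 (Lcn2) and 9.09 (Wfdc21) at 18 h, 4.83 (Lcn2) and 0.97 (Wfdc21) at 4 h and 7.30 (Saa3) at 2 weeks, and Pearson's r of Saa3 and Lcn2 at 2 weeks passed unadjusted (0.80, exact permutation p = 0.0389). With 10 they were 8.72, 2.91 and 2.75 at 18 h, 0.85 (Lcn2) at 4 h and 2.88 (Saa3) at 2 weeks, and list calls were 4 (receptors and iron) at 4 h and 0 (relatives), 3 (acute-phase) and 1 (inducers) at 18 h. A filter at an RPKM of 5 left 0 relatives and 3 acute-phase genes called at 18 h. The single 18 h retina of experiment 2 gave 4.01 for Wfdc21. Rescaling to equal summed RPKM shifted the median of all genes from -0.11 to -0.28 at 4 h and from -0.08 to -0.26 at 18 h. With each retina left out, Saa3 ranged from 11.31 to 12.14 and Lcn2 from 5.12 to 6.51 at 18 h. The replicate block gave 11.56, 5.49 and 5.78 at 18 h for Saa3, Lcn2 and Wfdc21 and changed no call of theirs. Of 34 pairs of retinas with the same number, 15 correlated above 0.1 (median 0.0353, range -0.329 to 0.698). Retinas with different numbers were not compared in this way, so whether the numbers pair retinas was not tested. A choice made after seeing the data left out naive retinas 3 and 4, 2-week retina 1 and 18 h retina 4. Without these retinas, Saa3 was 12.16, Lcn2 6.45 and Wfdc21 5.58 above naive at 18 h, and Saa3 was 5.44 above naive at 2 weeks. Lcn2 amounted to at most about 10.7 reads in naive and 9.28 in 2-week retinas, which limits the precision of its levels there. The cause of these shifts was not tested.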
